A study of Mus musculus with 8 samples.

Results

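The fibrillar collagens of types I, III and V form the banded fibrils of soft connective tissue and of bone, and 6 genes encode their chains in the deposited table: Col1a1, Col1a2, Col3a1, Col5a1, Col5a2 and Col5a3. They were taken by symbol from the table's 55536 genes, each matched 1 row, and all 6 passed the filter on low values. The tissue was the right and left posterior palatal shelves, the outgrowths that later meet to form the roof of the mouth. They were dissected from mouse embryos at E14.5 (embryonic day) before elevation, and they held epithelium and mesenchyme together. The 4 control libraries came from Yapfl/fl;Tazfl/fl embryos, which carry floxed alleles of Yap1 and of Wwtr1 (the gene for TAZ) and no Cre. The 4 mutant libraries came from Yapfl/fl;Tazfl/fl;Col2Cre embryos, which carry the same floxed alleles and a Cre transgene named for Col2a1, the cartilage collagen gene. Cells of the dissected shelf without Cre activity keep both genes. Strain and sex were not given in the sources used here. Nothing in the labels says that each library is its own animal, so the p-values measure only sample-to-sample spread, which may in part be technical.

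Fibrillar collagens are made as procollagen chains that are hydroxylated and glycosylated in the endoplasmic reticulum, folded into a triple helix, secreted, trimmed of their propeptides and crosslinked. Type I is a heterotrimer of pro-alpha1(I) and pro-alpha2(I) chains and is the main collagen of bone and of most mesenchyme. Type III is a homotrimer that co-assembles with type I in stretchable tissue, and type V sits inside type I fibrils, starts their assembly and limits their width. YAP and TAZ are transcriptional co-activators of the Hippo pathway that act on DNA through TEAD factors. The genotypes were compared to see whether these collagen genes, and the genes that serve them, differ when floxed embryos also carry Col2Cre.

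Depth was even, with 29025089 to 32437977 reads per library recovered from the table. Sums of normalised counts did not overlap between the genotypes, with 30906402 to 32072446 in controls and 29541859.5 to 30244262 in mutants. Normalised counts and shares of reads therefore differ slightly as measures. Both targeted genes had lower means in mutants: for Yap1, 9610.0 ± 429 normalised counts in controls against 8463 ± 277 in mutants (SD, n = 4 each), and for Wwtr1, 4879 ± 352 against 4007 ± 397. Neither passed the test over all genes (limma adjusted p = 0.751 for both). Mutant replicate 2 stood apart from the other mutant libraries in several cell type markers, so values without it are given for the 6 collagen genes, and for gene lists where it moved a median that was not near 0 by over 1.5 times. The 10 palatal mesenchyme markers, among them Osr2 and Tbx22, were all tested, and their mean log2 level lay between -0.09 and 0.08 of the control mean in all 8 libraries. That mean does not show the spread of single markers: 6 had higher and 4 lower means in mutants, with log2 differences of 0.30 for Tbx22 and 0.16 for Osr2.

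In normalised counts (reads of a gene over the library's size factor), both type I genes and Col5a2 had lower means in mutants, Col5a1 was slightly lower, and Col3a1 and Col5a3 differed by under 3% on the fitted scale. None of the 6 passed limma at a Benjamini-Hochberg adjusted p of 0.05 over 16647 genes, where 0.024% of all genes tested passed. At an unadjusted limma p under 0.05 there were 3 of 6 members, all lower in mutants (Col1a1, Col1a2 and Col5a2), against 3.79% of all genes lower at that p and 6.57% in either direction. For 5 of 6 members the mean log2 value was lower in mutants, against 50% of all genes. The mutants lay wholly below the controls for 0 of 6 members and wholly above for 0 of 6, against 1.91% and 1.86% of all genes. On recovered reads, edgeR and DESeq2 also called 0 of 6, against 0.03% and 0.182% of the genes each tested. In bulk tissue, fewer cells of a type and less RNA per cell cannot be told apart.

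Col1a1 encodes pro-alpha1(I), the chain that contributes a pair of strands to each type I molecule. It had 168705.0, 206881, 219318 and 180290.0 normalised counts in control replicates 1 to 4 and 178482, 113409.5, 149937 and 166274 in mutant replicates 1 to 4. All mutant libraries lay below the control mean and 3 of 4 below the lowest control, while mutant replicate 1 lay inside the control range. The control mean was 193799 ± 23342 and the mutant mean 152026 ± 28276 (SD, n = 4 each). The log2 difference was -0.36 (SE 0.136, 95% interval -0.66 to -0.07, limma adjusted p = 0.754), 0.778 of the control level with an interval from 0.633 to 0.956 that is not adjusted for the number of genes. Without mutant replicate 2 it was -0.23, with quantile normalisation -0.21, and without mutant replicate 1 -0.45. Col1a1 spans chromosome 11 from 94936224 to 94953042 on the plus strand (ENSMUSG00000001506), in the coordinates of the table, which names no build. Its gene starts and ends equal those of GENCODE M21 on GRCm38 for 95.2% of the 52403 gene IDs in both.

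Col1a2 encodes pro-alpha2(I), the other strand of the type I molecule. Its normalised counts were 114481, 126386, 123695 and 107363 in the controls and 120769, 67489.6, 94578 and 100659.6 in the mutants. The same order appeared as for Col1a1: mutant replicate 2 was lowest, replicate 3 next, and replicate 1 lay inside the control range. The means were 117981 ± 8724 (SD, n = 4) and 95874 ± 21985 (SD, n = 4), a log2 difference of -0.33 (SE 0.143, 95% interval -0.64 to -0.01, limma adjusted p = 0.754). It moved to -0.17 without mutant replicate 2, to -0.16 with quantile normalisation and to -0.45 without mutant replicate 1. Col1a2 (ENSMUSG00000029661) lies on chromosome 6 from 4504814 to 4541544, plus strand.

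Col3a1 encodes the single chain of type III collagen. It had 127541, 142198, 178509 and 133791 normalised counts in the controls and 153647, 141669, 157189 and 139992 in the mutants. All mutant libraries fell inside the control range, whose upper end was set by control replicate 3. The means were 145510.0 ± 22804 (SD, n = 4) and 148124 ± 8573 (SD, n = 4), a log2 difference of 0.04 (SE 0.103, 95% interval -0.19 to 0.26, limma adjusted p = 0.967). In fold terms the interval ran from 0.877 to 1.20, so a change of the size of the fitted Col1a1 difference lay outside it. With quantile normalisation the value was 0.23, without mutant replicate 2 it was 0.06, without control replicate 3 it was 0.14, and without control replicate 1 it was -0.02. Mutant replicate 2, the lowest library for both type I genes, had a Col3a1 count 0.03 below the control mean on the log2 scale, against 0.77 and 0.80 below for Col1a1 and Col1a2.

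**Figure D1:**
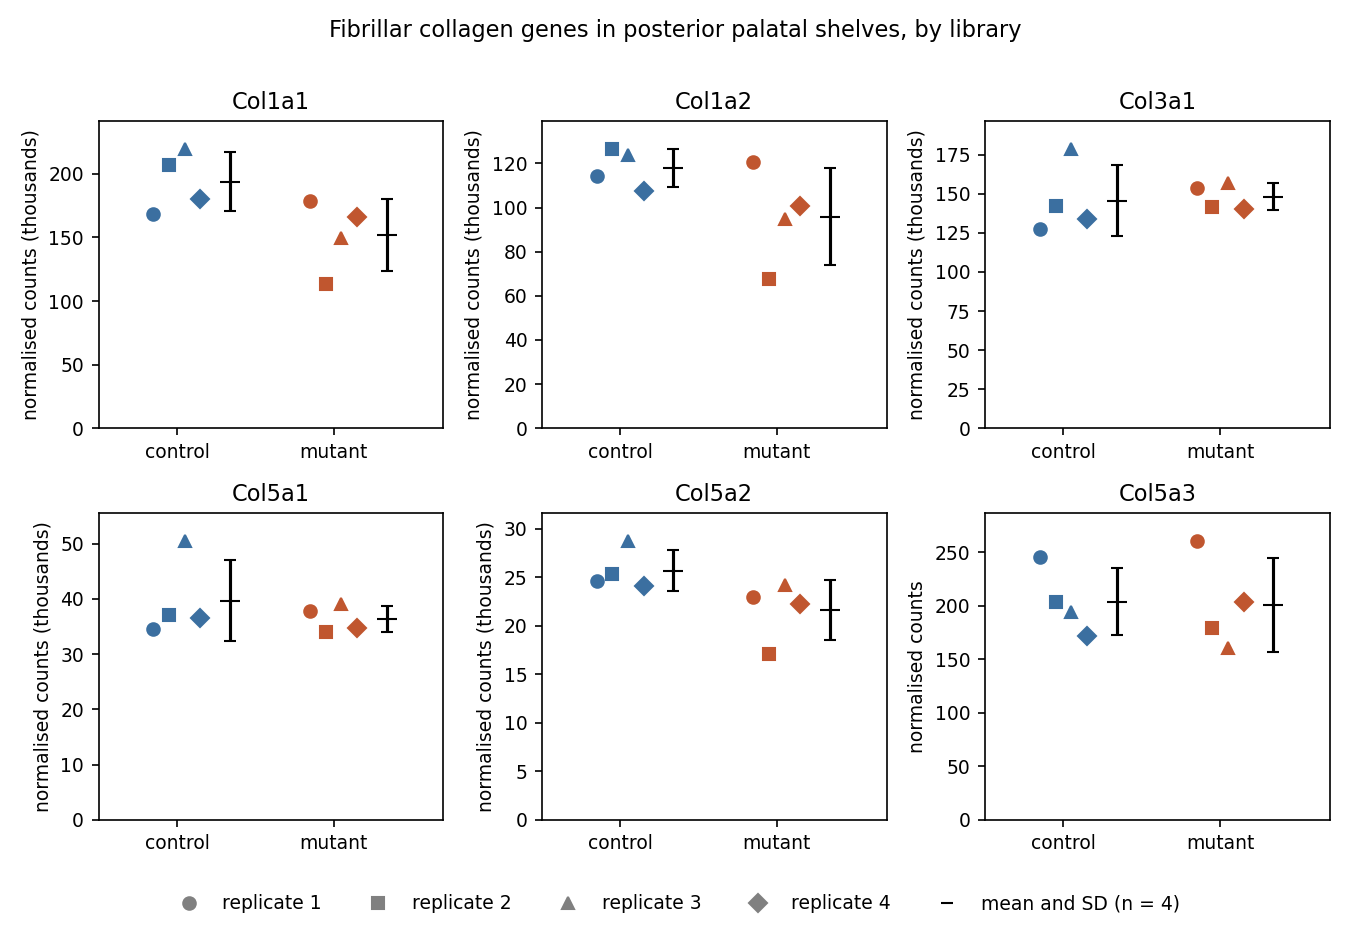
Normalised counts (y axes) of the 6 collagen genes in the 4 control and 4 mutant libraries; symbols mark the replicate number, which pairs no samples, and bars the mean and SD. Mutant replicate 2 (square) is the lowest library for Col1a1, Col1a2 and Col5a2, while its Col3a1 count of 141669 lies inside the control range.

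Col5a1 encodes pro-alpha1(V), the chain present in the common form of type V. Its normalised counts were 34593, 37092, 50507 and 36605 in the controls and 37742, 34088, 39083 and 34668 in the mutants. Control replicate 3 stood above all other libraries, and the remaining controls and the mutants overlapped. The means were 39699 ± 7286 (SD, n = 4) and 36395 ± 2404 (SD, n = 4), a log2 difference of -0.11 (SE 0.106, 95% interval -0.34 to 0.12, limma adjusted p = 0.872). Without control replicate 3 it was 0.01. Leaving out mutant replicate 2 gave -0.08. Col5a1 (ENSMUSG00000026837) lies on chromosome 2 from 27886425 to 28039514, plus strand.

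Col5a2 encodes pro-alpha2(V), the partner of pro-alpha1(V). It had 24597, 25328, 28755 and 24143.5 normalised counts in the controls and 22950.1, 17099, 24186 and 22256 in the mutants. For 3 of 4 mutant libraries the count was below the lowest control, and mutant replicate 3 was just above control replicate 4. The means were 25706 ± 2091 (SD, n = 4) and 21623 ± 3120 (SD, n = 4), a log2 difference of -0.26 (SE 0.100, 95% interval -0.48 to -0.04, limma adjusted p = 0.754). Without mutant replicate 2 it was -0.15.

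Col5a3 encodes pro-alpha3(V), a chain of a rarer form of type V. It had 246, 204, 194 and 172 normalised counts in the controls and 261, 179, 160.2 and 203 in the mutants. The groups overlapped fully, and replicate 1 was the highest library in each. Its means were 204 ± 31.1 (SD, n = 4) and 201 ± 43.6 (SD, n = 4), with a log2 difference of -0.03 (SE 0.199, 95% interval -0.47 to 0.40, limma adjusted p = 0.983). The interval is the widest of the 6, and Col5a3 also had the fewest reads, from 166 to 268 per library, against at least 18066 for each other member. Its sign turned without control replicate 1 (0.06), mutant replicate 2 (0.01) or mutant replicate 3 (0.07). Col5a3 (ENSMUSG00000004098) lies on chromosome 9 from 20770050 to 20815067, minus strand.

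**Figure D2:**
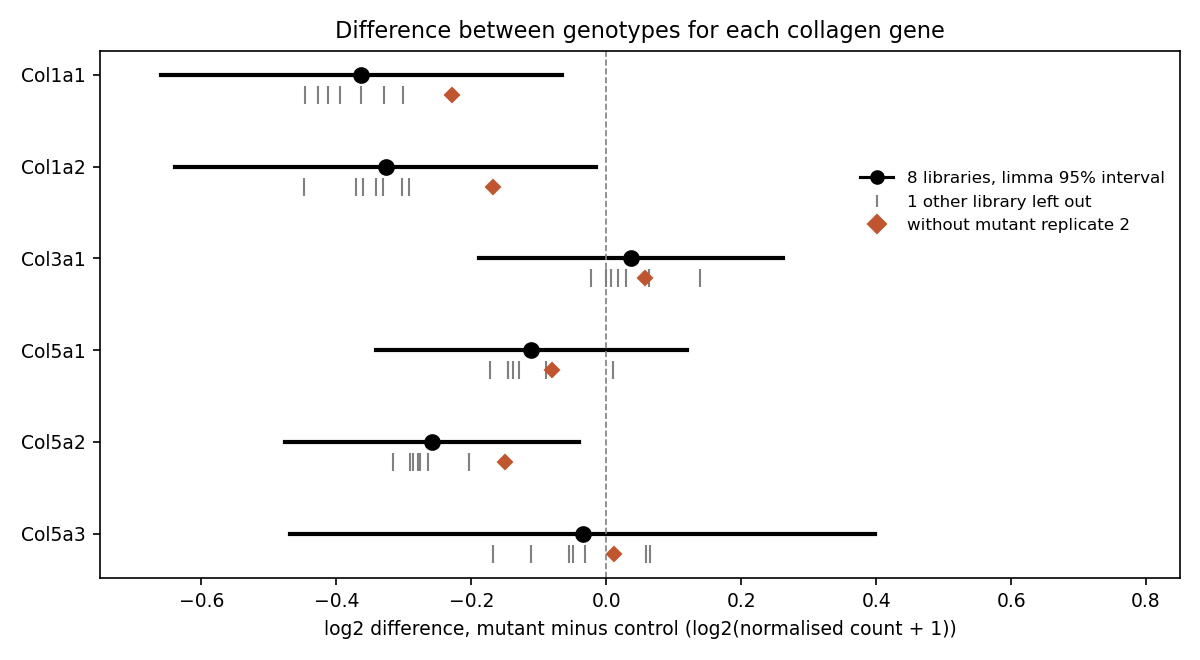
Log2 difference between mutants and controls (x axis) for each collagen gene (y axis): black points and bars are the limma estimate and its 95% interval over 8 libraries, grey ticks the estimates with 1 other library left out, and diamonds those without mutant replicate 2. Leaving out that library moved Col1a1 from -0.36 to -0.23, Col1a2 from -0.33 to -0.17 and Col5a2 from -0.26 to -0.15.

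Libraries whose titles share a first number were compared among themselves, since the labels do not say what that number marks. Between mutant replicate 4 and the 2 controls of number 2057, the log2 difference was -0.22 for Col1a1, -0.21 for Col1a2, -0.15 for Col5a2, -0.09 for Col5a1, 0.02 for Col3a1 and 0.12 for Col5a3. Between mutant replicates 2 and 3 and the 1 control of number 3602 (control replicate 3), it was -0.75 for Col1a1, -0.63 for Col1a2, -0.50 for Col5a2, -0.47 for Col5a1, -0.26 for Col3a1 and -0.20 for Col5a3. Both sets put the type I genes lowest, and Col5a3 highest followed by Col3a1. With so few libraries in each, neither set gives a test.

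Per length of transcript, Col1a1 had the highest level in controls, followed by Col3a1 and then Col1a2, and Col5a3 was far below the rest. Lengths came from GENCODE M21, as the union of all annotated exons of a gene and, as an alternative, as its longest transcript. By exon union, the levels in controls were 29529 ± 3557 normalised counts per kilobase for Col1a1, 14824 ± 2323 for Col3a1, 9495 ± 702 for Col1a2, 4676 ± 858 for Col5a1, 2680.2 ± 218 for Col5a2 and 30.0 ± 4.6 for Col5a3 (SD, n = 4). The exon union of Col1a2, 12426 bp, is over the 5348 bp of its longest transcript because it counts exons of all 8 annotated transcripts. By longest transcript, Col1a1 had 32681 ± 3936, Col3a1 26152 ± 4099, Col1a2 22061 ± 1631, Col5a1 4723 ± 867, Col5a2 3880.2 ± 316 and Col5a3 33.3 ± 5.1. The order in controls was the same on both lengths, and by exon union it held in 8 of 8 libraries, with overlapping ranges only for Col1a1 with Col3a1 and Col1a2 with Col5a1. In mutants, by longest transcript, Col3a1 with 26622 ± 1541 stood above Col1a1 with 25637 ± 4768, and the libraries divided evenly, 2 of 4 with Col1a1 higher. On that length the ranges of Col1a1 and Col3a1, of Col3a1 and Col1a2, and of Col5a1 and Col5a2 overlapped between neighbours in the order, although within each library Col3a1 was above Col1a2 and Col5a1 above Col5a2 in 8 of 8. The share of all reads was 1.66% ± 0.161 in controls and 1.52% ± 0.189 in mutants for the 6 genes together, and 0.991% ± 0.0810 and 0.831% ± 0.166 for the type I genes. For Col1a1 alone it was 0.616% ± 0.064 and 0.510% ± 0.094, and for Col3a1 0.462% ± 0.065 and 0.497% ± 0.024.

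Ratios between members within a library do not move with library scaling, so they compare members directly. Ratios of normalised counts are given without scaling to length, which changes every library alike. The ratio of Col3a1 to Col1a1 was 0.756, 0.687, 0.814 and 0.742 in control replicates 1 to 4 and 0.861, 1.25, 1.05 and 0.842 in mutant replicates 1 to 4. All 4 mutants were higher than all 4 controls, with the largest values in mutant replicates 2 and 3. The log2 difference was 0.40 (SE 0.143), 1.32-fold, with an exact two-sided permutation p of 0.0286, the smallest that 4 libraries against 4 can give, and 0.0857 when adjusted over the 6 ratios tested. It was 0.29 without mutant replicate 2, 0.24 among libraries of number 2057 and 0.49 among those of number 3602. How often ratios of other gene pairs separate the genotypes in this way was not examined. The 6 pairs were chosen with earlier results of these data known.

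The ratio of Col3a1 to Col5a2 behaved alike, with 5.19, 5.61, 6.21 and 5.54 in the controls and 6.70, 8.29, 6.50 and 6.29 in the mutants. Again all mutant libraries lay above all controls, although control replicate 3 and mutant replicate 4 were close. Its log2 difference was 0.29 (SE 0.105, exact permutation p = 0.0286, adjusted 0.0857), and 0.21 without mutant replicate 2. Both ratios contain Col3a1, and Col1a1 and Col5a2 correlated at r = 0.910 over the libraries, so these are not 2 separate results. Col3a1 and Col5a2 are neighbours on chromosome 1, the first from 45311538 to 45349706 on the plus strand (ENSMUSG00000026043) and the second from 45374321 to 45503282 on the minus strand (ENSMUSG00000026042). Their 3' ends face each other across 24614 bp with 0 annotated genes between them.

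The other 4 ratios did not separate the genotypes. Col1a1 to Col1a2, the balance of the type I chains, was 1.64 ± 0.125 (SD, n = 4) in controls and 1.599 ± 0.0900 in mutants; the log2 difference was -0.04 (SE 0.0695, exact permutation p = 0.714, adjusted 0.771). By longest transcript the same ratio was 1.48 in controls and 1.44 in mutants, and by exon union 3.11 and 3.03, so its absolute size depends on the length used. Col5a1 to Col1a1 was 0.204 ± 0.0208 and 0.245 ± 0.0439 (log2 difference 0.25, SE 0.147, exact permutation p = 0.143, adjusted 0.286). Without mutant replicate 2 that difference was 0.15. Col5a2 to Col5a1 was 0.656 ± 0.0613 and 0.593 ± 0.0622 (log2 difference -0.15, exact permutation p = 0.257, adjusted 0.386), and -0.07 without mutant replicate 2. Col5a3 to Col5a1 was 0.00529 ± 0.00139 and 0.00553 ± 0.00117 (log2 difference 0.08, exact permutation p = 0.771, adjusted 0.771).

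**Figure D3:**
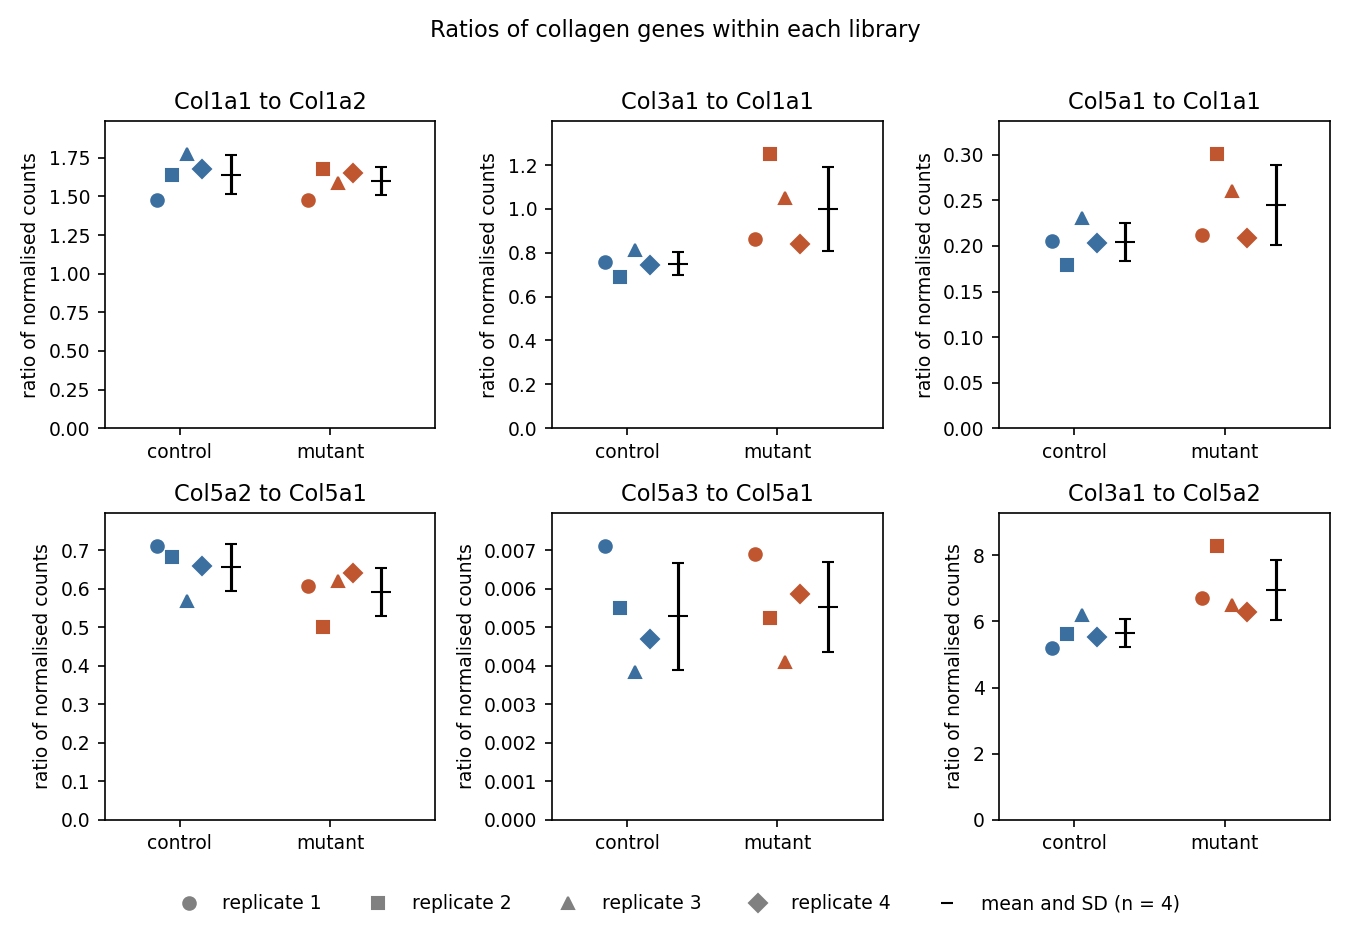
Ratios of normalised counts (y axes) between pairs of collagen genes within each control and mutant library; symbols mark the replicate number and bars the mean and SD. For Col3a1 to Col1a1 the mutants run from 0.842 to 1.25, all above the highest control at 0.814, while for Col1a1 to Col1a2 the groups overlap.

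Across the 8 libraries some pairs of members moved together, although no Spearman rho passed 0.05 after adjustment over the 15 pairs. Of 15 pairs, the closest was Col1a1 with Col1a2 (Pearson r = 0.950, exact permutation p = 0.0004, adjusted 0.0067 over the 15 pairs; Spearman rho = 0.905, p = 0.0046, adjusted 0.0685). With group means removed r was 0.925, and without the 2 libraries farthest from the median of Col1a1, control replicate 3 and mutant replicate 2, it was 0.863. Col3a1 paired with Col5a1 (r = 0.884, exact permutation p = 0.0047, adjusted 0.0248; rho = 0.833, p = 0.0154, adjusted 0.115), with r = 0.987 after removing group means and 0.657 without the 2 farthest libraries. Col5a2 followed Col1a1 at r = 0.910 (exact permutation p = 0.0050, adjusted 0.0248; rho = 0.738, p = 0.0458, adjusted 0.172), but at 0.395 without the 2 farthest libraries, so that relation rests on them. For Col5a2 with Col1a2, r was 0.878 (exact permutation p = 0.0128, adjusted 0.0479; rho = 0.738, p = 0.0458, adjusted 0.172) and 0.638 without the 2 farthest. Col3a1 with Col1a1 had r = 0.322 (exact permutation p = 0.428, adjusted 0.641) and rho = 0.238 (p = 0.582, adjusted 0.728), with r = 0.546 after removing group means and -0.259 without the 2 farthest libraries. Col5a1 had r = 0.688 with Col5a2 (exact permutation p = 0.122, adjusted 0.362) and 0.601 with Col1a1 (exact permutation p = 0.145, adjusted 0.362). The pairs of Col5a3 had r from -0.174 to 0.502, with adjusted exact permutation p from 0.389 to 0.780. With 4 libraries in each genotype, no correlation was computed within one.

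Col3a1 and Col5a1, whose levels correlated at r = 0.884, have upstream sequences of very different base composition, and these are shown for that reason. The sequences are the 250 bases before the RefSeq start site on GRCm38.p6, 5' to 3' on the gene's strand, with capitals for matches to 4 motifs searched on both strands: the TEAD motif GGAATG, the GC box GGGCGG, the CCAAT box and the TATA box TATAAA. Both genes lie on the plus strand, Col3a1 at chr1:45311288-45311537 and Col5a1 at chr2:27886175-27886424.
Col3a1: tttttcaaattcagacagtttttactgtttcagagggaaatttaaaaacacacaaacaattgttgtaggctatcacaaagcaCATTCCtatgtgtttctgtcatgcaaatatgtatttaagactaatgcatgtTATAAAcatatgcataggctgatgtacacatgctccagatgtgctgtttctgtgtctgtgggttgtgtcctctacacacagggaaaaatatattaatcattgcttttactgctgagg
Col5a1: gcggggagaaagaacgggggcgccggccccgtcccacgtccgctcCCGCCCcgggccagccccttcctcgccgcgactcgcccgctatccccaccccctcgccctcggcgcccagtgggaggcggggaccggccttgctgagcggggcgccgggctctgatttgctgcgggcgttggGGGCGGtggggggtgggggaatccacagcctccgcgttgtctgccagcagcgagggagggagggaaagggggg
G and C made up 35.2% of the Col3a1 window and 76.4% of the Col5a1 window. Col3a1 held CATTCC, the TEAD motif on the other strand, from 168 to 163 bases before the start. It also held a sequence match to TATAAA from 117 to 112 bases before the start. Col5a1 held a GC box on each strand and no other match. Of 4 members with a promoter in the RefSeq table (Col1a2, Col3a1, Col5a1 and Col5a3), Col1a2 held 2 GC boxes and a CCAAT box in a window that lies inside the gene, since its RefSeq start is downstream of the gene's start in the table, and Col5a3 held 2 GC boxes on the other strand and a CCAAT box. Among all 32851 promoter windows of that length, 12.6% held the TEAD motif, 12.4% the TATA box, 32.7% the GC box and 33.8% the CCAAT box, so a single match is common and is a description only.

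A search of 13619 tested genes with a mean of at least 50 normalised counts, the 6 members among them but not named, gave the patterns most like each member over the 8 libraries. These values were picked as the highest and have no p. Col1a1 was followed most closely by Mfap2, a microfibril protein (r = 0.990), Eepd1 (0.984) and Robo2, a receptor for Slit ligands (0.979). Col1a2 was followed by Atxn1l (0.989), the mesenchymal cadherin gene Cdh11 (0.987) and Fbln5, an elastic fibre protein (0.984). For Col3a1 these were Tmem94 (0.966), the basement membrane collagen Col4a1 (0.965) and Fam83d (0.963). For Col5a1 they were Pxdn, a peroxidase that crosslinks collagen IV (0.982), Prrc2a (0.968) and Tle4 (0.961). Col5a2 was followed by Hnrnpul1 (0.986), Cdh13 (0.983) and 1700025G04Rik (0.979), and Col5a3 by Mterf2 (0.968), Aptx (0.954) and Kcns1 (0.935). In mutants against controls the log2 difference was -0.13 for Mfap2, -0.32 for Robo2, -0.22 for Cdh11, -0.24 for Fbln5, -0.01 for Col4a1 and -0.09 for Pxdn.

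Genes that build, trim and crosslink fibrillar collagen had mostly lower means in mutants, and none of those lists held a gene that passed limma over all genes. The median log2 difference over all genes tested was 0.00, and the lists below were chosen with earlier results of these data known. Of 25 genes of procollagen modification, folding and secretion 23 had lower means (median -0.14, and -0.08 without mutant replicate 2). Creb3l1, a transcription factor of the endoplasmic reticulum that drives Col1a1 in bone, had 6432, 6003, 5190.3 and 5702 normalised counts in the controls and 4602, 3264, 4022 and 5128 in the mutants, every mutant below every control (log2 difference -0.47, limma adjusted p = 0.751). The collagen-binding protein gene Sparc was at -0.27, the prolyl hydroxylase gene P4ha1 at -0.28 and the prolyl isomerase gene Fkbp14 at -0.28. For propeptide cleavage 7 of 8 were lower (median -0.17, and -0.11 without control replicate 3), with the N-proteinase gene Adamts2 at -0.26 and Pcolce, an enhancer of C-propeptide removal, at -0.24, both with limma adjusted p = 0.754, and with Pcolce2 at -0.54 and Bmp1, the C-proteinase, at -0.10.

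All 5 lysyl oxidase genes had lower means (median -0.21, and -0.13 without control replicate 3). Loxl4 was at -1.75 (SE 0.462) and Loxl2 at -0.24 (SE 0.0772), with limma adjusted p = 0.751 and 0.754, Lox at -0.21 and Loxl3 at -0.19. Control replicate 3 had 83.1 normalised counts of Loxl4, inside the mutant range of 25.1 to 91.4, while the other controls had 243.5 to 307.7. Of 15 fibril-associated matrix genes 13 were lower (median -0.31). The leucine-rich proteoglycan genes Prelp, Bgn, Ogn and Fmod were at -1.08, -0.31, -0.61 and -0.48, while others of that class on the list, Lum, Kera and Dcn, were at -0.12, 0.08 and 0.10. Prelp had 360.4 to 631 normalised counts in the controls and 125.9 to 339 in the mutants, without overlap (limma adjusted p = 0.751).

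All 5 other fibrillar collagen genes had lower means (median -0.62, and -0.36 without mutant replicate 2). Col11a1, whose chain can also assemble with type V chains, was at -0.63 (SE 0.206), Col11a2 at -1.24 (SE 0.420), Col2a1 at -0.62 (SE 0.240) and Col24a1 at -0.18 (SE 0.0769), each with limma adjusted p = 0.754. Col11a1 had 10319 to 13783 normalised counts in the controls and 4546 to 10509 in the mutants, where only mutant replicate 1 reached into the control range. Of 11 tested genes of collagen breakdown and its inhibitors, 11 had lower means (median -0.15, -0.08 without mutant replicate 2 and -0.10 without control replicate 3). The 4 with the smallest p were the collagen uptake receptor gene Mrc2 (-0.18) and the inhibitor genes Timp2 (-0.20), Timp3 (-0.15) and Timp4 (-0.61). Mmp8 did not pass the filter.

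Collagen receptors were divided, with 5 of 9 tested lower and 4 higher (median -0.03, and 0.04 without mutant replicate 2; Gp6 did not pass the filter). Ddr2, a collagen-activated kinase of mesenchymal cells, had 8861, 9895, 9500.3 and 8793 normalised counts in the controls and 8773, 7405, 7712 and 7673 in the mutants, without overlap but with mutant replicate 1 just below control replicate 4 (log2 difference -0.23, limma adjusted p = 0.751). Ddr1, the epithelial kinase of that family, had 3822, 3684, 4476 and 4334 in the controls and 4449.8, 6397, 5309 and 4416 in the mutants, with 2 mutants above all controls (log2 difference 0.32, limma adjusted p = 0.754). The integrin genes Itga10 and Itga11 were at -1.07 and -0.43. Of 12 regulators of type I collagen transcription or mRNA 7 were lower and 5 higher (median -0.13, -0.05 without mutant replicate 2 and -0.05 without control replicate 1). The osteoblast factors Sp7 and Runx2 were at -0.93 and -0.56, the tendon factor gene Mkx at -0.29 and Ctgf at -0.18, and limma adjusted p was 0.754 for Sp7.

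**Figure D4:**
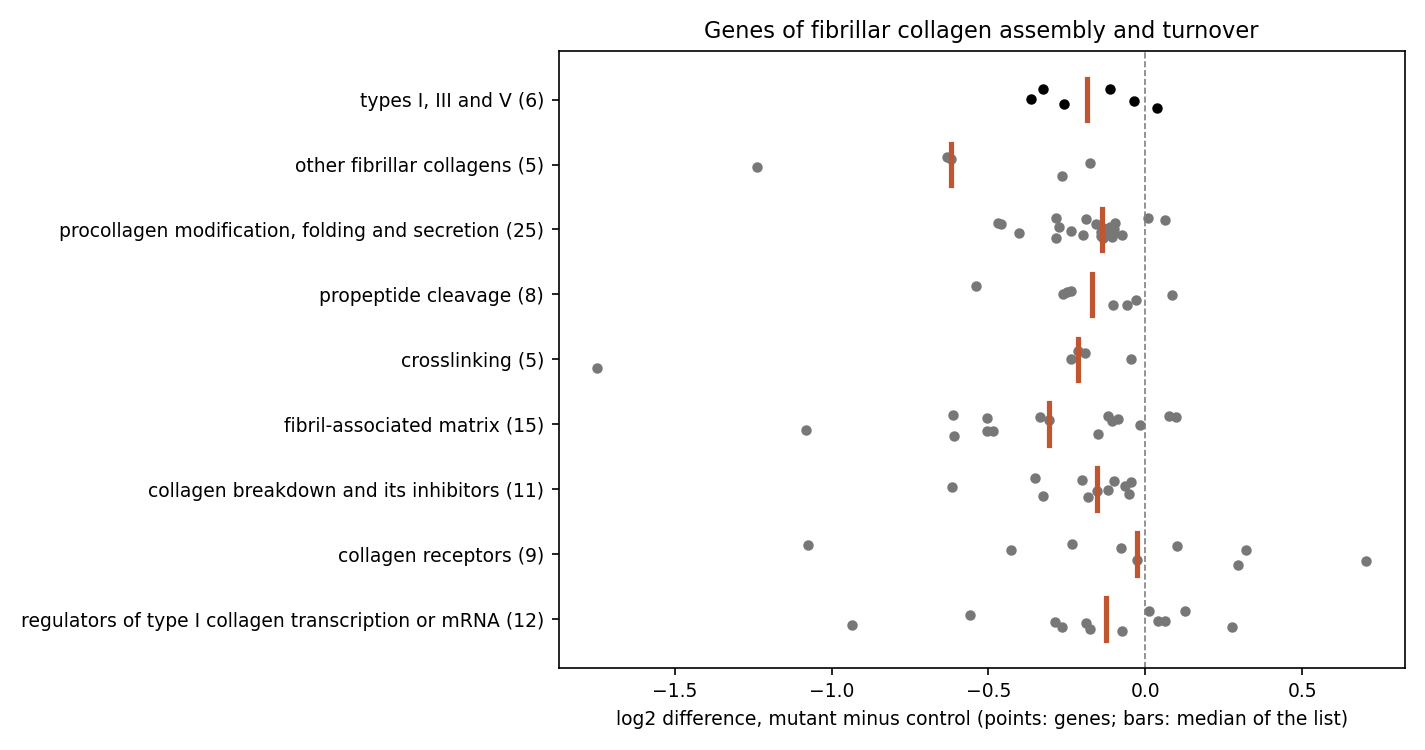
Log2 difference between mutants and controls (x axis) of each tested gene in 9 lists (y axis, with the number tested); points are genes, offset vertically at random, and bars the median of a list. The median is -0.62 for the other fibrillar collagens and -0.03 for the receptors.

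Levels of several cell type marker lists differed between the genotypes beside the collagens, although no marker gene passed limma over all genes, and their part in the collagen differences was not tested. All 11 tested osteoblast markers of 12 had lower means in mutants (median log2 difference -1.13, and -0.39 in the authors' variance-stabilised values), with Bglap at 0 in every library. Their summed normalised counts ran from 26698 to 51545 in controls and from 9023 to 27567 in mutants. Ibsp, a matrix protein of bone, had 23279, 19064, 6533 and 17749 in the controls and 2435, 727, 1486 and 5680.4 in the mutants, and Sp7 had 4827, 3709, 3668 and 4019, and 3459, 858, 1798 and 3698. Mutant replicates 2 and 3, with the 2 lowest Col1a1 counts and the 2 highest Col3a1 to Col1a1 ratios, also had the 2 lowest mean osteoblast levels, -2.14 and -1.65 on the log2 scale relative to the control mean. The order was not the same for mutant replicates 1 and 4, with osteoblast levels of -1.045 and -0.563 and Col1a1 counts of 178482 and 166274. Mutant replicate 1 thus had an osteoblast level below all controls and a Col1a1 count inside the control range. Among controls the order was not the same either. Control replicate 1 had the highest osteoblast level (0.73) and the lowest Col1a1 count, and control replicate 3 the lowest level (-0.60) and the highest Col1a1 count. Each marker weighs alike in these levels, so markers with few reads affect their size. Mepe, with a control mean of 56.4 normalised counts, was at 0.0 in mutant replicates 1 and 2.

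Of the other marker lists, all 14 epithelium and periderm genes had higher means in mutants (median 0.22), with sums from 32736 to 47785 in controls and from 35553 to 64449 in mutants, the highest in mutant replicate 2. Without that library the median was 0.09, and without mutant replicate 1 it was 0.36. Cartilage markers were lower in 7 of 8 (median -0.33, Hapln1 at -0.84), and leaving out control replicates 1 to 4 in turn gave medians of -0.17, -0.52, -0.68 and -0.21, and leaving out mutant replicate 1 gave -0.68. Endothelial markers were lower in 8 of 9 (median -0.22, Cdh5 at -0.27), with a median of -0.14 without mutant replicate 2. Among markers of Schwann cells and crest-derived glia, 6 of 7 were higher (median 0.48), and without mutant replicate 1, the highest library, the median was 0.20. Of 7 erythroid markers 7 were higher (median 0.29, and 0.56 without mutant replicate 1 or 0.45 without control replicate 3). Skeletal muscle (0.07), neuron (0.06), pericyte and smooth muscle (0.09), macrophage (0.04) and palatal mesenchyme (0.05) lists had medians near 0, and in each of these the median was negative without at least 1 of the libraries. Single libraries still differed widely in mean log2 level relative to the control mean. Skeletal muscle was at 0.912 in mutant replicate 3 and -0.921 in mutant replicate 4. Neuron markers were at -1.125 in control replicate 3 and 1.062 in mutant replicate 2.

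**Figure D5:**
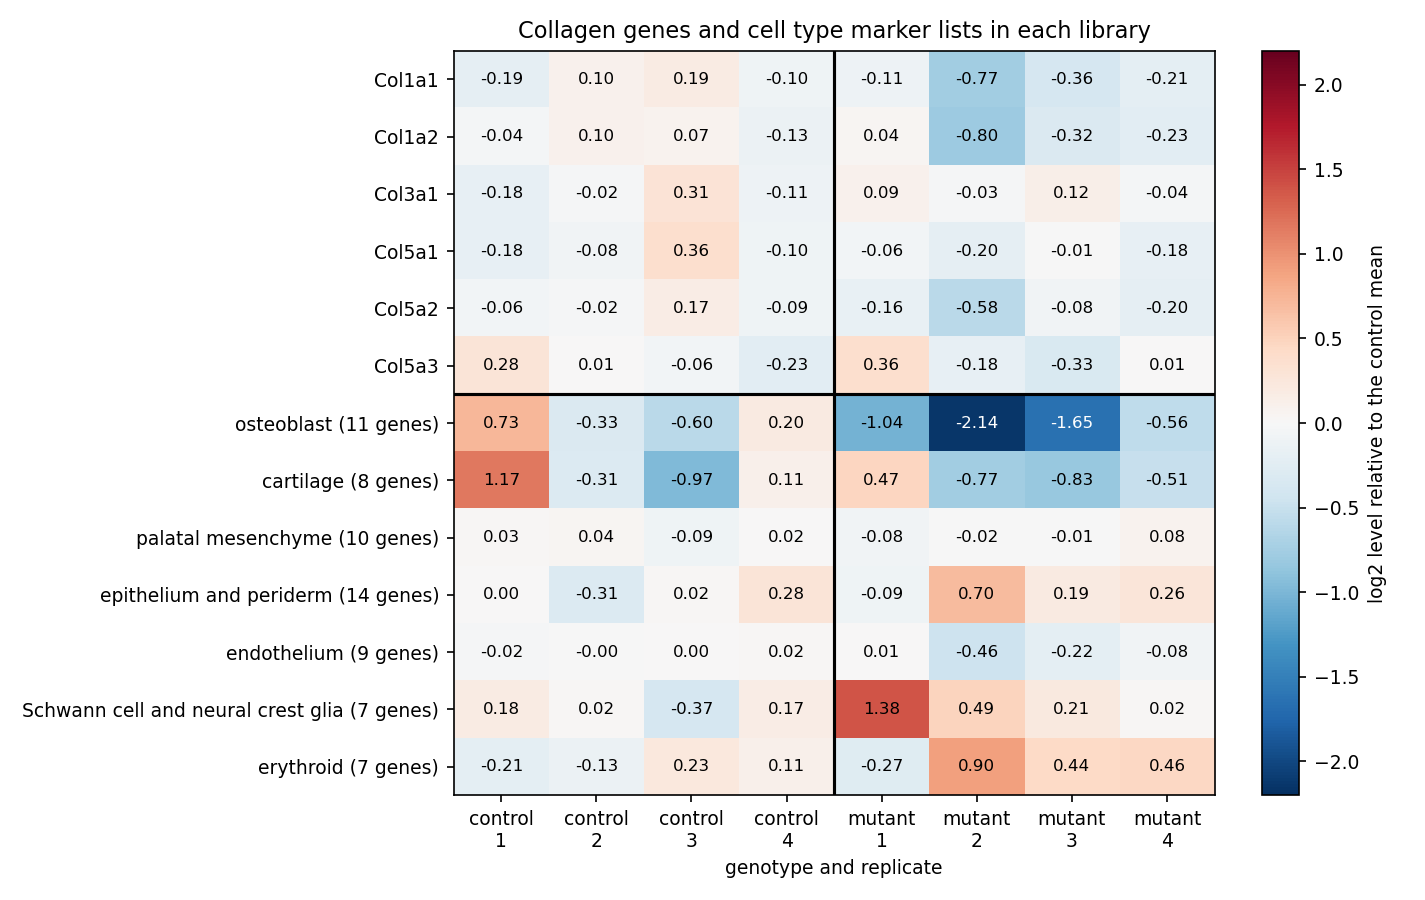
Log2 level relative to the control mean (colour and printed values) of the 6 collagen genes and of 7 marker lists (mean over the tested genes of a list) in each library. Mutant replicate 2 has -0.77 for Col1a1, -0.80 for Col1a2 and -0.03 for Col3a1, together with -2.14 for osteoblast and 0.70 for epithelium and periderm markers.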

How the data were processed

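RNA of 8 libraries was compared as labelled, 4 controls and 4 mutants, with replicates numbered in accession order. STAR 2.7.2 and DESeq2 (no version) are named in the submitters' processing notes, while the counting tool, strand setting, annotation and build were not given in the sources used here. The signal values deposited by the authors are normalised counts: each gene's reads over the library's size factor, kept to 1 decimal. They gave whole reads within 0.06 reads for 100.0% of values between 50 and 5000. The deposited log2 values are the authors' variance-stabilised values and served 1 alternative. Without strand, reads of 2810430I11Rik, which overlaps the start of Col5a1 on the opposite strand (mean 197 normalised counts), cannot be told apart from it.

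limma 3.58.1 in R 4.3.3 took log2(normalised count + 1), with genotype as the only term and a trended variance, over genes with at least 10 normalised counts in at least 4 of 8 libraries, two-sided with Benjamini-Hochberg adjustment. Fold changes are on that scale. Ratios used exact permutation. Lists are described by counts and medians. The members, lists and tests were chosen with earlier results of these data known. Named genes were the members, Yap1, Wwtr1 and Col2a1, up to 4 genes of each pathway list and 2 of each other marker list with the smallest p, Ibsp and Sp7, and the 3 genes most correlated with each member. Palatal mesenchyme, macrophage and other marker lists are given by medians or mean levels where no gene is named. Bglap, Mepe, Lum, Kera and Dcn were named outside the rule after their values were seen. No 2 libraries agreed within sampling noise. Alternatives used pseudocounts of 0.5 and 8, other filters, scalings and variances, a replicate block, leaving out each library, and edgeR 4.0.16 and DESeq2 1.42.0 on recovered reads. The fits were tested on simulated data. Figures used matplotlib 3.10.9 in Python 3.11.15.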

Additional observations from a re-analysis of the deposited data

Results flagged for a closer look

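For Col5a1, control replicate 3 had 50506.7 normalised counts, far above the other 3 controls (34593 to 37092), and its gap to the next control was 0.843 of the range of the group. This was the 1 group of the 24 examined (6 genes and 6 ratios in each genotype) with a sample so far from the rest, and chance alone gives about 1 in 20 groups.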

How the results depend on the processing

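None of the 6 member differences, Yap1, Wwtr1 or the 6 ratios passed its test under any alternative run. For the ratios this was close to fixed by the design. The smallest exact permutation p that 4 libraries against 4 can give, 0.0286, becomes 0.0857 after adjustment over the 6 ratios when 2 of them reach it. Not passing therefore says little about the ratios of Col3a1 to Col1a1 and to Col5a2. Of 240 alternative values for these differences and ratios, 230 kept their direction and 10 turned. Not all of them could turn, so the count is no measure of robustness. Other filters and robust variances leave a gene's estimate as it is, and a change of length leaves a ratio difference as it is. Turned values were those of differences near 0: leaving out 1 library each gave -0.023 to 0.139 for Col3a1, -0.172 to 0.010 for Col5a1, -0.168 to 0.065 for Col5a3, -0.086 to 0.003 for the Col1a1 to Col1a2 ratio and -0.065 to 0.231 for Col5a3 to Col5a1. With the replicate block (the first number of each title), Col3a1 was at -0.12 (limma adjusted p = 0.838) and Col5a1 at -0.278 (limma adjusted p = 0.715). In that fit Col1a1 was at -0.483 (limma adjusted p = 0.697), Col1a2 at -0.421 and Col5a2 at -0.326 (limma adjusted p = 0.720 for both). The medians of the breakdown, regulator, glia and erythroid lists were -0.267, -0.035, 0.197 and 0.489. The block fit rests on the 6 libraries whose number occurs in both genotypes. Deviations of same-numbered libraries from their group means correlated at -0.008 to 0.100 over genes, against -0.085 to 0.076 for libraries with different numbers. The number was not taken to pair samples, but with so few libraries this check cannot exclude an effect they share. limma called 4 genes in all, 6 with the replicate block, 0 with robust variances (1061 at an unadjusted p under 0.05) and 0 to 11 with 1 library left out, and DESeq2 called 27. Leaving out control replicate 2, control replicate 4 or mutant replicate 3 gave 0 (855, 1026 and 966 at an unadjusted p under 0.05), control replicate 3 gave 11 and mutant replicate 4 gave 8. The adjusted p ranged from 0.530 to 0.976 for Col1a1 and from 0.524 to 0.976 for Col1a2. The Col3a1 to Col1a1 ratio difference ran from 0.29 to 0.48 with 1 library left out. Over the settings run, its exact permutation p adjusted over the 6 ratios ranged from 0.0857 to 0.400. The cause of these shifts was not tested. With the deposited variance-stabilised values the osteoblast median was -0.388 in place of -1.13. Col5a3 had the fewest reads, 166 to 268 per library.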
